A study of Schizosaccharomyces pombe with 10 samples.

Results

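Antisense non-coding RNAs of fission yeast (Schizosaccharomyces pombe) are transcripts read from the strand opposite a protein-coding gene. They were taken here as the annotated non-coding RNAs, with identifiers that begin SPNCRNA, whose exons overlap an exon of a coding gene on the opposite strand, away from the outer 100 kb of chromosomes I and II and from the regions around the 3 centromeres. This gave 921 RNAs of the 7268 genes in the table, 413 of them on chromosome I, 337 on chromosome II and 171 on chromosome III, set against 852 paired coding genes (for each RNA, the coding gene with the longest overlap). Many such RNAs start downstream of or inside a coding gene, and cells keep them low by suppressing cryptic start sites in transcribed chromatin and by degrading the products in the nuclear exosome. In this pathway Set2 methylates histone H3 behind elongating RNA polymerase II, and the histone deacetylase complex Clr6 complex II, which contains the PHD finger proteins Cph1 and Cph2, deacetylates the same chromatin. Loss of these factors is known in fission yeast for raising antisense transcription.

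The study sequenced poly(A)-selected RNA from 10 libraries, 2 for each of 5 strains, to describe how deletion of cph1, cph2 or set2 changes the transcriptome. The parent called wt was an h- strain (dy1779) with the auxotrophic alleles his3 d1, ura4-d18, leu1-32 and ade6-m216, and the cph1-delta (cph1Δ) and cph2-delta (cph2Δ) strains carried the same alleles and a KANMX cassette in place of the named gene. The second parent, wt2, was labelled h- with no other allele, and set2-delta (set2Δ) was that background with a KANMX null allele of set2. All strains were grown in 2xYES medium at 30 °C to an OD600 of 0.6 to 1.2, and each strain is 1 isolate as far as the labels say. Whether replicate libraries are separate cultures is not in the labels, so p-values measure the spread between these libraries only.

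Per the file header, the reads were counted over exons with featureCounts' default settings, which ignore strand and count a read that touches 2 genes for neither, so an antisense RNA received counts only from the part of its exons that lies outside every other gene. That counted stretch is what the values below refer to, and a read there could come from either strand. It usually lies beside the coding gene, often over its promoter. Below are 150 bases of it for 7 RNAs, chosen because they passed the test in both Cph deletions (SPNCRNA.662, SPNCRNA.992 and SPNCRNA.1191), lie opposite the well-known regulated genes nmt1 and fbp1 (SPNCRNA.1234 and SPNCRNA.1324), showed the largest rise in set2Δ (SPNCRNA.1691) or hold the motif searched for (SPNCRNA.1381). The sequences are read 5′ to 3′ along the antisense RNA, from RefSeq's ASM294v3, and capitals mark TNAAAC, the core recognised by the RNA elimination factor Mmi1.
SPNCRNA.662: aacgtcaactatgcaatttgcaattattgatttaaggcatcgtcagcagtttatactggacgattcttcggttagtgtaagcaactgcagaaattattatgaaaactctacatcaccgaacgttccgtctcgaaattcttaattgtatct
SPNCRNA.992: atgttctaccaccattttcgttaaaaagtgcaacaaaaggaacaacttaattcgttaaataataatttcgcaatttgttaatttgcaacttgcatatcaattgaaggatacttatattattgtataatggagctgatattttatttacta
SPNCRNA.1191: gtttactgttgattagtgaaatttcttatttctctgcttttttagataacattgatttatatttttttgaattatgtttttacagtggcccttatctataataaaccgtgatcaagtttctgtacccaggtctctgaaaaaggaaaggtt
SPNCRNA.1324: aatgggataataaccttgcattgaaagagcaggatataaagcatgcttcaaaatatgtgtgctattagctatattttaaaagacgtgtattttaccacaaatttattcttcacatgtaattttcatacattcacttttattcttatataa
SPNCRNA.1234: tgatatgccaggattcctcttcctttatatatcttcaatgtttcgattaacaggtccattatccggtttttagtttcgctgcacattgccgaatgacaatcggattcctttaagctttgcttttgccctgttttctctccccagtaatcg
SPNCRNA.1691: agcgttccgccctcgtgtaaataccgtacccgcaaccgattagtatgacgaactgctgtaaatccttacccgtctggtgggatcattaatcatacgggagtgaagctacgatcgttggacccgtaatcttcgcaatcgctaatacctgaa
SPNCRNA.1381: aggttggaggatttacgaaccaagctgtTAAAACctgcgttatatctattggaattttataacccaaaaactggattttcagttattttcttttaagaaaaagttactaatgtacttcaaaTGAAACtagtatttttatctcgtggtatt
These stretches lie at chrI:585116-585265 (minus strand), chrI:4506929-4507078 (plus), chrIII:1386374-1386523 (minus), chrII:200560-200709 (plus), chrIII:1838263-1838412 (minus), chrII:4428786-4428935 (plus) and chrII:701649-701798 (minus). As printed, the SPNCRNA.1234 stretch begins at the base just upstream of the annotated start of nmt1. The SPNCRNA.1191 stretch begins in the same way beside the start of akr7, and the SPNCRNA.1691 stretch beside that of cao2. TNAAAC was searched on the RNA strand only, and it stood in 111 of the 399 stretches long enough to give a window, or 27.8%. It stood in 2 of the 14 windows from RNAs that passed a test, and SPNCRNA.1381 holds it 2 times. The median GC content of the 399 windows was 32%.

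The antisense RNAs were long and mostly hidden from the count. Their exons had a median of 1288 bases (76 to 5317), of which a median of 916 were shared with the paired coding gene and a median of 171 with no gene. Of the 921 RNAs, 363 started inside the coding gene and ran out past its 5′ end, 203 ended inside it, 228 lay within it and 127 spanned it. All 216 RNAs with no unshared base had 0 counts in every library, and 376 RNAs in all had 0 counts, so that nothing can be said about their level. The filter on low counts, which edgeR applies over all libraries, kept 307 of the 921, or 33.3%. These 307 are the RNAs with room to be counted, as the plot of tested rows by unshared length shows: 52 of 52 with 1000 or more unshared bases were tested, 197 of 253 with at least 300 but under 1000, 50 of 263 with at least 100 but under 300, and 8 of 137 with fewer than 100. Of the RNAs within a coding gene only 4 were tested, against 77 of the 127 that spanned one.

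**Figure D1:**
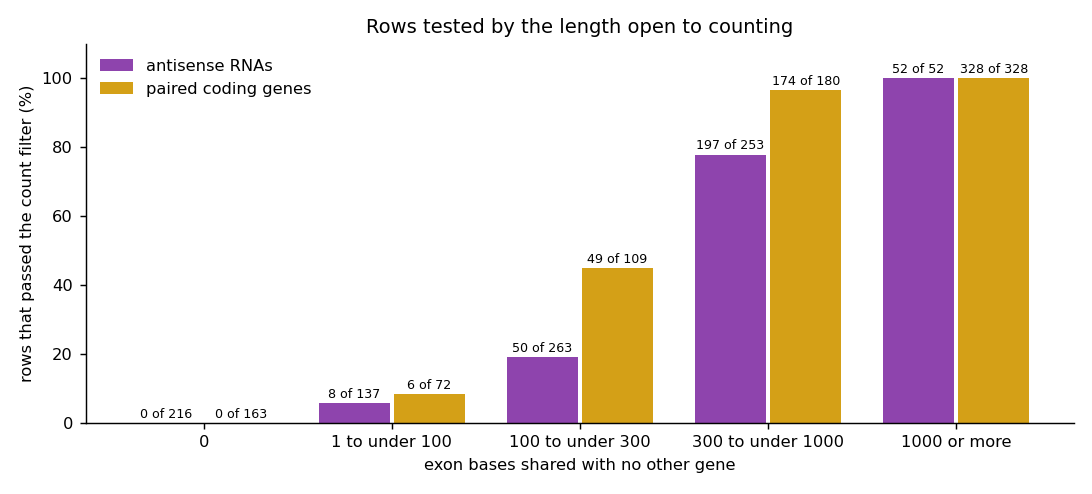
Share of antisense RNAs and of their paired coding genes that passed the count filter (vertical axis, percent), by the number of exon bases shared with no other gene (horizontal axis), with the number tested of all rows above each bar. No row with 0 unshared bases was tested, and 52 of 52 antisense RNAs and 328 of 328 coding genes with 1000 or more were.

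The same blind spot covers the coding side of the pairs. Of the 852 paired coding genes, 163 have no unshared base and 223 had 0 counts in every library, among them nmt1, fbp1, pdc202, hsp3101, akr7, grp1 and mfm3, and a count of 0 there says nothing about the coding messenger. In all, 557 paired coding genes were tested. For 126 of the 307 tested RNAs the paired gene was not tested.

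Antisense RNAs took a small share of each library. The wt libraries gave them 0.205% and 0.151% of assigned counts, against 0.213% and 0.339% for cph1Δ and 0.207% and 0.156% for cph2Δ. The shares were 0.184% and 0.175% for wt2 against 0.238% and 0.207% for set2Δ. Both set2Δ libraries stood above both wt2 libraries and both cph1Δ libraries above both wt libraries, while the cph2Δ and wt libraries overlapped. Replicate 2 of cph1Δ stood apart from the other 9, and without SPNCRNA.1153, which had 1675 counts there, its share was 0.322%. The median level of a tested RNA was 2.75 CPM (counts scaled to TMM-adjusted library totals), against 70.3 CPM over all genes tested. Between the libraries of a strain the median difference of an antisense RNA was 0.33 to 0.52 on the log2(CPM + 0.5) scale, against 0.18 to 0.30 over all genes tested.

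**Figure D2:**
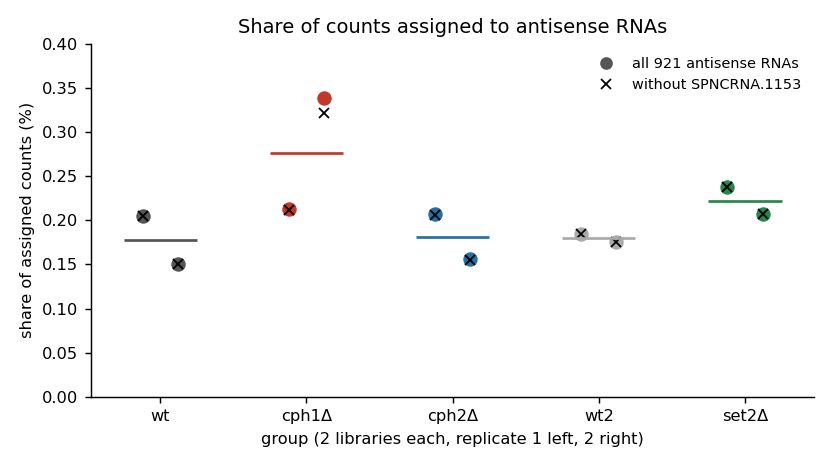
Share of assigned counts that fell on the 921 antisense RNAs (vertical axis, percent) in each library, by strain, with the mean of each strain as a line and crosses for the share without SPNCRNA.1153. Replicate 2 of cph1Δ is highest at 0.339%, or 0.322% without that RNA.

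The libraries held 9711537 to 13051467 assigned counts. The targeted genes checked the labels: cph1 was at 4.33% of its parent level in cph1Δ, cph2 at 3.77% in cph2Δ and set2 at 7.97% in set2Δ. The cph1 gene itself has an antisense RNA, SPNCRNA.687, which lies within it, has no unshared base and was listed at 0. Mating genes were summed in 2 lists, which do not separate the mating types. The list of mfm1, mfm2, mfm3, mam1 and map3 summed to 90.8 to 190.4 CPM, with mfm3, which has no unshared base, at 0. That of map2 and mam2 summed to 36.8 to 134 CPM. By edgeR mfm2 fell in cph2Δ (log2 fold change -2.35 ± 0.51 SE, adjusted p = 0.0209) and in set2Δ (-2.20 ± 0.49, 0.025). None of the other tested genes of these lists passed by edgeR in a deletion. Meiotic markers (mei4, spo6, rec8 and mde10) summed to 65.2 to 164 CPM, with 1 of the 4 at 0. The meiotic sum was 73.6 and 82.4 CPM in wt, 142 and 164 in cph1Δ and 118 and 133 in cph2Δ, and its part in the results below was not tested.

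The highest levels, per kilobase of counted stretch, were not among the RNAs that passed in a deletion with the main settings, apart from SPNCRNA.1153. Over the 414 RNAs with at least 200 unshared bases the median was 3.09 CPM per unshared kb, averaged over the 10 libraries. SPNCRNA.1153 averaged 68.2, SPNCRNA.1096 60.3, SPNCRNA.894 51.5, SPNCRNA.1115 43.5, SPNCRNA.111 42.6 and SPNCRNA.1616 40.2 CPM per unshared kb. The place of SPNCRNA.1153 rests on cph1Δ replicate 2, at 544, since the other 9 libraries ran from 4.45 to 28.4 and averaged 15.3. SPNCRNA.1096, opposite SPCC1884.01, lay between 45.4 and 86.2 in all libraries. SPNCRNA.894, opposite fmc1 (an assembly factor of the mitochondrial ATP synthase), ranged from 17.2 to 135 and differed more between the libraries of a strain than between strains, with 94.3 and 27 in wt2 and 135 and 36.1 in set2Δ. SPNCRNA.1616, beside the sphingolipid hydroxylase gene sur2, had 52.8 and 69.7 in wt against 36.8 and 15 in cph2Δ, with a log2 fold change of -1.24 ± 0.36 (SE) that did not pass (edgeR quasi-likelihood test, adjusted p = 0.0625). Among the 6 alternative settings that kept all libraries, it passed in cph2Δ by DESeq2, and by edgeR with no filter beyond 1 count and with a replicate block.

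Deletion of cph1 raised 7 antisense RNAs and lowered none. Those 7 are 2.28% of the 307 tested, against 5.62% of all 5067 genes tested (5.31% higher and 0.316% lower), and 37 of the 307 (12.1%, against 23.3% of all genes) had an unadjusted p below 0.05. A gene passed with an edgeR quasi-likelihood p, adjusted by Benjamini-Hochberg, below 0.05 in a fit of all 10 libraries. SPNCRNA.662 (chromosome I, 584478 to 587656) spans pdc202, a pyruvate decarboxylase gene, and is counted mostly over the 877 bases beyond the start of that gene. It had 23 and 26 counts (wt), 120 and 142 (cph1Δ), 96 and 131 (cph2Δ), 56 and 52 (wt2) and 70 and 80 (set2Δ). Both cph1Δ and both cph2Δ libraries lay above both wt libraries, and wt2 lay above wt. In cph1Δ its log2 fold change was 2.08 ± 0.38 (SE, adjusted p = 0.009), 1.95 to 2.20 in the fits that each left out 1 library, and it no longer passed without wt replicate 2 (adjusted p = 0.0869) or cph1Δ replicate 2 (0.0598).

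SPNCRNA.1191 (chromosome III, 1384966 to 1388056) spans akr7, an aldo-keto reductase family gene. It is counted over 1601 unshared bases, most of them in the 1558 bases beyond the start of akr7. Its counts were 157 and 197 (wt), 488 and 511 (cph1Δ), 369 and 387 (cph2Δ), 213 and 237 (wt2) and 444 and 430 (set2Δ). The libraries of each deletion lay above those of its parent. Its log2 fold change in cph1Δ was 1.16 ± 0.25 (SE, edgeR adjusted p = 0.0198), and it did not pass without either wt replicate (0.076 and 0.0869) or either cph1Δ replicate (0.051 and 0.114). SPNCRNA.662 and SPNCRNA.1191 were the RNAs that passed in cph1Δ in each of the 6 alternative settings that kept all libraries.

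The other 5 RNAs that rose in cph1Δ passed narrowly, with adjusted p from 0.0442 to 0.0487. SPNCRNA.828 (chromosome I, 2450314 to 2451737) starts inside SPAC32A11.02c and runs 862 bases past its 5′ end, and had 55 and 28 counts (wt), 142 and 156 (cph1Δ) and 97 and 135 (cph2Δ), with 62, 51, 61 and 79 in wt2 and set2Δ. SPNCRNA.1100 (chromosome III, 47513 to 48882) starts inside hsp3101, a gene of the DJ-1 family, and had 44 and 28 counts (wt), 122 and 129 (cph1Δ), 90 and 98 (cph2Δ), 41 and 33 (wt2) and 77 and 111 (set2Δ). In both cases the libraries of cph1Δ and cph2Δ lay above those of wt, with log2 fold changes in cph1Δ of 1.53 ± 0.39 (SE) for SPNCRNA.828 and 1.48 ± 0.38 for SPNCRNA.1100. SPNCRNA.828 passed in 2 of the 10 fits that left out a library and SPNCRNA.1100 in 1, with adjusted p up to 0.356 and 0.347 without wt replicate 2. SPAC32A11.02c itself, counted over 2475 bases of its own, had a log2 fold change of 0.36 ± 0.32 in cph1Δ and did not pass (adjusted p = 0.501).

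SPNCRNA.992 (chromosome I, 4505708 to 4510013) spans grp1 and reaches into ric1, a subunit gene of a guanine nucleotide exchange factor of vesicle traffic, and is counted over the 331 bases that neither covers. Its counts were 1 and 2 (wt), 31 and 19 (cph1Δ), 25 and 42 (cph2Δ), 1 and 5 (wt2) and 37 and 26 (set2Δ). Every deletion library lay above every parent library. The counts in cph1Δ were 13.3 times those in wt after scaling (95% exact counting interval 4.29 to 66.6, counting error only), the fitted log2 fold change was 3.64 ± 0.93 (SE, edgeR adjusted p = 0.0455), and it passed in 2 of the 10 fits that left out a library (adjusted p 0.24 without wt replicate 2).

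SPNCRNA.1062 (chromosome I, 5230242 to 5230965) ends inside dad3, a gene of the kinetochore DASH complex, and is counted over 65 bases. It had 1 and 0 counts (wt), 12 and 18 (cph1Δ), 9 and 17 (cph2Δ), 2 and 1 (wt2) and 5 and 10 (set2Δ). The deletion libraries lay above their parents, and the ratio of cph1Δ to wt was 23.9 (95% exact counting interval 3.98 to 976). The fitted log2 fold change was 4.31 ± 1.13 (SE, adjusted p = 0.0487), and it passed in none of the 10 fits that left out a library (0.0607 to 0.36) and in none of the 6 other settings that kept them all. The next gene, mek1, which encodes a meiotic kinase, lies 175 bases away on the other strand and rose by a log2 fold change of 2.68 ± 0.41 in cph1Δ (edgeR adjusted p = 0.00424), 2.80 ± 0.41 in cph2Δ (0.00295) and 1.93 ± 0.41 in set2Δ (0.0186). Its part in the SPNCRNA.1062 counts was not tested.

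SPNCRNA.1153 (chromosome III, 717659 to 718923) spans SPCC18B5.02c, and its rise rests on 1 library. It had 70 and 45 counts (wt), 84 and 1675 (cph1Δ), 39 and 30 (cph2Δ), 13 and 12 (wt2) and 29 and 48 (set2Δ). Replicate 1 of cph1Δ lay close to wt and replicate 2 far above all other libraries. The log2 fold change of 3.59 ± 0.94 (SE, edgeR adjusted p = 0.0472) was 0.25 without cph1Δ replicate 2 (adjusted p = 0.908).

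As a whole, the count of 7 in cph1Δ was 0 without wt replicate 2 or without cph1Δ replicate 2, and 2 to 4 without each of the other libraries. It was 2 with relative log expression scaling, 2 with only wt and cph1Δ in the fit, and 10 with DESeq2. All genes tested gave 4.72%, 3.39% and 10.2% in these settings, against 5.62% in the main fit. Their calls also fell without wt replicate 2 or without cph1Δ replicate 2.

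Deletion of cph2 raised 5 antisense RNAs and lowered 2, which is 2.28% of the 307 against 6.12% of all genes tested (5.21% higher and 0.908% lower), with 39 (12.7%, against 23.5%) at an unadjusted p below 0.05. All 5 that rose span their coding gene. The comparison uses the same wt libraries as that of cph1Δ, so the values are set side by side without reading an overlap from them. In cph2Δ SPNCRNA.662 had a log2 fold change of 2.04 ± 0.38 (SE, edgeR adjusted p = 0.0103), SPNCRNA.1191 of 0.93 ± 0.25 (0.0495) and SPNCRNA.992 of 4.20 ± 0.92 (0.0216), the last with 20 times the scaled counts of wt (95% exact counting interval 6.55 to 99.4). SPNCRNA.662 and SPNCRNA.992 each passed in 7 of the 10 fits that left out a library and lost the call without either wt replicate (SPNCRNA.662 0.0513 and 0.0828, SPNCRNA.992 0.0985 and 0.134) or cph2Δ replicate 2 (0.0561 and 0.107). SPNCRNA.1191 passed in none of them (0.054 to 0.165).

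SPNCRNA.1234 (chromosome III, 1837499 to 1840092) spans nmt1, the thiamine-repressed gene of thiamine synthesis, and its 914 counted bases all lie beyond the start of nmt1. It had 119 and 148 counts (wt), 360 and 310 (cph1Δ), 259 and 416 (cph2Δ), 153 and 139 (wt2) and 236 and 246 (set2Δ). All libraries of the 3 deletions lay above all libraries of the parents. In cph2Δ it rose by 1.16 ± 0.27 on the log2 scale (SE, edgeR adjusted p = 0.0293), with 0.998 ± 0.271 in cph1Δ (not past the test, 0.0556) and 0.62 ± 0.27 in set2Δ (0.252). It did not pass in cph2Δ without either wt replicate (0.114 and 0.101) or cph2Δ replicate 2 (0.208).

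SPNCRNA.1324 (chromosome II, 197369 to 200995) spans fbp1, the glucose-repressed gene of fructose bisphosphatase. It reaches 1521 bases beyond the start of fbp1 and 291 beyond its end, but is counted over 727 unshared bases only. The longest counted stretch, on the side of the start, has 436 bases. It had 8 and 2 counts (wt), 22 and 37 (cph1Δ), 44 and 33 (cph2Δ), 11 and 10 (wt2) and 12 and 23 (set2Δ). The cph2Δ libraries lay above all others except cph1Δ replicate 2, which lay between them by count. The log2 fold change of 2.79 ± 0.73 in cph2Δ (SE, edgeR adjusted p = 0.0444) passed in none of the 10 fits that left out a library (0.0516 to 0.269). In cph1Δ it was 2.22 ± 0.73 and did not pass (0.106).

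SPNCRNA.1599 and SPNCRNA.1158 fell in cph2Δ, and both end inside their coding gene and are counted beyond its 3′ end. SPNCRNA.1599 (chromosome II, 3409507 to 3412197, opposite ptk1) had 434 and 418 counts (wt), 381 and 332 (cph1Δ), 260 and 165 (cph2Δ), 378 and 381 (wt2) and 277 and 424 (set2Δ). Both cph2Δ libraries lay below all others. Its log2 fold change was -1.13 ± 0.28 (SE, edgeR adjusted p = 0.0372), and it did not pass without either wt replicate (0.0818 and 0.165), cph1Δ replicate 2 (0.0503) or cph2Δ replicate 2 (0.208, with a value of -0.78). The ptk1 gene, counted over 676 bases of its own, had -0.15 ± 0.22 (0.728).

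SPNCRNA.1158 (chromosome III, 765556 to 767481) lies opposite gnr1, a gene of the G protein beta subunit family. It had 14 and 52 counts (wt), 8 and 9 (cph1Δ), 3 and 2 (cph2Δ), 6 and 10 (wt2) and 7 and 6 (set2Δ). The wt libraries differed from each other more than the other strains did among themselves, and replicate 2 of wt stood far above every other library. The log2 fold change was -3.83 ± 0.92 in cph2Δ (SE, edgeR adjusted p = 0.0321). Without wt replicate 2 it was -2.56 (adjusted p = 0.279), and it passed in 3 of the 10 fits that left out a library.

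The count of 7 in cph2Δ was 0 without wt replicate 2 or without cph2Δ replicate 2, 17 without cph2Δ replicate 1, of which 12 were lower, 2 without wt replicate 1, 3 without cph1Δ replicate 2, and 4 or 5 without each of the others. It was 0 with only wt and cph2Δ in the fit and 14 with DESeq2. All genes tested gave 2.49% and 11.3% in these settings, against 6.12% in the main fit. Their calls also fell without wt replicate 2 or cph2Δ replicate 2 and rose without cph2Δ replicate 1.

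Deletion of set2 raised 2 antisense RNAs and lowered 2, which is 1.3% of the 307 against 4.89% of all genes tested (4.32% higher and 0.572% lower), with 32 (10.4%, against 18.2%) at an unadjusted p below 0.05. SPNCRNA.1691 (chromosome II, 4428745 to 4430247) starts inside cao2, a copper amine oxidase gene, shares 41 bases with it and runs 1462 bases past its 5′ end, 110 kb from the end of the chromosome. It had 3 and 0 counts (wt2), 41 and 52 (set2Δ), 16 and 5 (wt), 27 and 40 (cph1Δ) and 10 and 26 (cph2Δ). Both set2Δ libraries lay above all others, and wt2 lay below wt. The counts in set2Δ were 28.7 times those in wt2 after scaling (95% exact counting interval 9.51 to 141), and the fitted log2 fold change was 4.76 ± 0.97 (SE, edgeR adjusted p = 0.0167).

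Genes beside SPNCRNA.1691 rose too in set2Δ. The flocculin gene pfl5, 3137 bases away on the cao2 side, had a log2 fold change of 1.46 ± 0.26 (edgeR adjusted p = 0.00849), and SPBC8E4.04, 2000 bases away on the other side, had 2.11 ± 0.27 (0.00166). SPBC8E4.03, the next paired coding gene, had 1.84 ± 0.34 (0.0109). The antisense RNA of SPBC8E4.04, SPNCRNA.1692, had 2.06 and did not pass (0.0508), and that of SPBC8E4.03, SPNCRNA.1693, has 18 unshared bases and was not tested. The cao2 gene, with 141 unshared bases, had 0 and 0 counts in wt2 and 5 and 7 in set2Δ and was not tested.

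SPNCRNA.1185 (chromosome III, 1307546 to 1309445) ends inside SPCC1322.09 and is counted over 1237 bases beyond its 3′ end. Its counts were 70 and 46 (wt2), 156 and 233 (set2Δ), 115 and 81 (wt), 169 and 201 (cph1Δ) and 136 and 88 (cph2Δ). The set2Δ libraries lay above those of wt2, and the cph2Δ and wt libraries overlapped. The log2 fold change in set2Δ was 1.63 ± 0.36 (SE, edgeR adjusted p = 0.0261), while SPCC1322.09 had 0.32 ± 0.31 (0.668).

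SPNCRNA.1381 and SPNCRNA.1008 fell in set2Δ. SPNCRNA.1381 (chromosome II, 700027 to 701807) spans mfm3, a gene of the M-factor pheromone precursor, and touches cop1, a coatomer subunit gene. It had 230 and 202 counts (wt2), 108 and 77 (set2Δ), 170 and 150 (wt), 238 and 253 (cph1Δ) and 214 and 318 (cph2Δ). Only the set2Δ libraries lay below those of their parent, and those of the Cph deletions lay above theirs. The next gene, SPBPJ4664.02, lies 141 bases away on the other strand. It rose by 1.08 ± 0.255 in cph1Δ (edgeR adjusted p = 0.0323) and 1.30 ± 0.256 in cph2Δ (0.0138), with 0.13 ± 0.256 in set2Δ (0.837). Its part in the SPNCRNA.1381 counts was not tested. The log2 fold change in set2Δ was -1.30 ± 0.31 (SE, edgeR adjusted p = 0.0348), -0.92 without set2Δ replicate 2 (0.232) and -1.78 without set2Δ replicate 1 (0.0306). The difference between the effects of cph1Δ or cph2Δ and of set2Δ on this RNA did not pass by edgeR with the main settings, while that for cph2Δ passed by DESeq2, with no filter beyond 1 count and without set2Δ replicate 1.

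SPNCRNA.1008 (chromosome I, 4647230 to 4649094) ends inside SPAC30C2.08 and begins inside por1, the gene of the mitochondrial porin, so that it lies opposite both. It had 148 and 141 counts (wt2), 50 and 55 (set2Δ), 138 and 122 (wt), 163 and 112 (cph1Δ) and 128 and 103 (cph2Δ). Both set2Δ libraries lay below all others. In set2Δ it had a log2 fold change of -1.57 ± 0.36 (SE, edgeR adjusted p = 0.027), against -0.46 ± 0.18 for SPAC30C2.08 (0.198) and -0.26 ± 0.29 for por1 (0.708).

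The count of 4 in set2Δ was 0 without either wt2 replicate, 3 without cph1Δ replicate 2 and 4 without each of the other wt, cph1Δ and cph2Δ libraries. It was 1 without set2Δ replicate 1 (SPNCRNA.1381) and 1 without set2Δ replicate 2, where the RNA called was SPNCRNA.1202 and not one of the 4. With DESeq2 there were 9, where all genes tested gave 7.16%, against 4.89% in the main fit. The calls over all genes also fell without any 1 of the wt2 and set2Δ libraries. SPNCRNA.1691, SPNCRNA.1185 and SPNCRNA.1008 each passed without any 1 of the wt, cph1Δ and cph2Δ libraries and lost the call without any 1 of the wt2 and set2Δ libraries, with adjusted p of 0.0528 to 0.137 for SPNCRNA.1691, 0.082 to 0.213 for SPNCRNA.1185 and 0.106 to 0.182 for SPNCRNA.1008. SPNCRNA.1381 lost it without either wt2 replicate (0.132 and 0.191), set2Δ replicate 2 or cph1Δ replicate 2 (0.0515). The fitted value of SPNCRNA.1691 was 8.46 without wt2 replicate 1, which leaves a parent library at 0, and 3.93 without wt2 replicate 2.

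**Figure D3:**
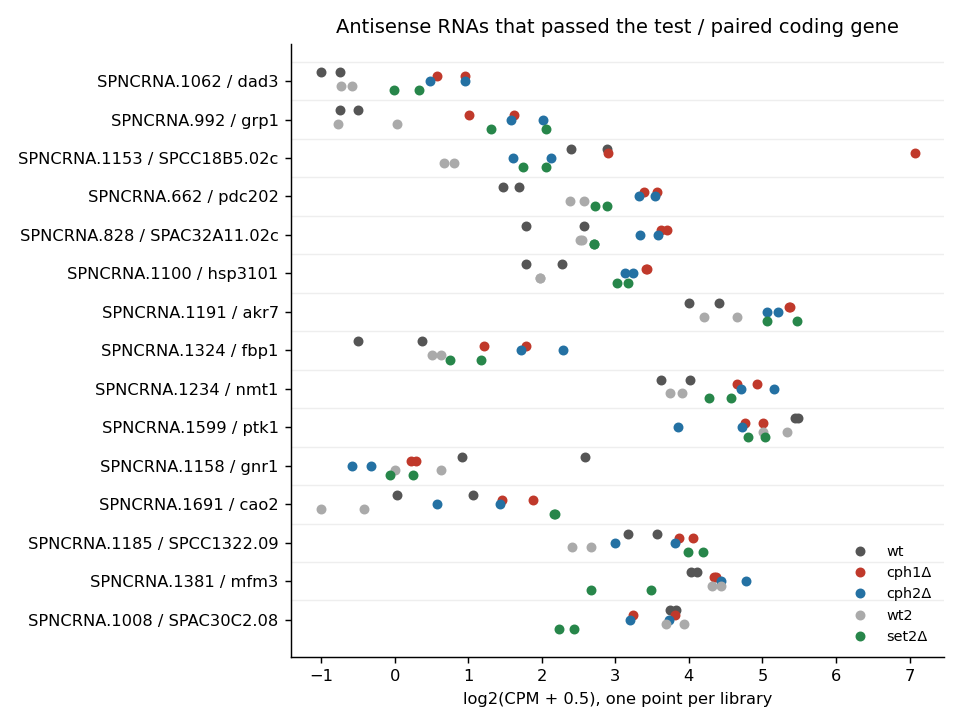
Level of each antisense RNA that passed a test (rows, with the paired coding gene) in each of the 10 libraries, as log2(CPM + 0.5) on the horizontal axis, coloured by strain, 2 points a strain. SPNCRNA.662 and SPNCRNA.1191 have both Cph deletions above wt, SPNCRNA.1691 has set2Δ above wt2, and SPNCRNA.1153 has 1 cph1Δ library apart from all others.

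By edgeR 0 antisense RNAs passed in all 3 deletions. There were 8 with an unadjusted p below 0.05 in all 3, and 1, SPNCRNA.992, passed in all 3 by DESeq2. No share over all genes is given for these counts, so they are a description only. SPNCRNA.992 had 3.23 ± 0.84 in set2Δ at an adjusted p of 0.0501, and SPNCRNA.1191 had 0.85 ± 0.25 at 0.0818. Of the 48 RNAs opposite genes named for meiosis, 19 were tested. In each deletion 0 of the 19 passed by edgeR or by DESeq2, with 1 at an unadjusted p below 0.05. The edgeR shares in cph1Δ, cph2Δ and set2Δ were 2.28%, 2.28% and 1.3% of the 307 RNAs and 5.62%, 6.12% and 4.89% of all genes. Unadjusted, they were 12.1%, 12.7% and 10.4% of the 307 and 23.3%, 23.5% and 18.2% of all genes. With such shares, 0 calls among 19 do not set the RNAs opposite meiotic genes apart.

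Over all 307 tested RNAs the fold changes centred above 0 in cph1Δ and set2Δ and near 0 in cph2Δ. The median log2 fold change was 0.43 in cph1Δ, against 0.02 over all genes tested, -0.01 in cph2Δ against 0.01, and 0.33 in set2Δ against 0.03. Library by library, against the parent mean on the log2(CPM + 0.5) scale, the median was 0.20 and 0.56 in cph1Δ, 0.14 and -0.14 in cph2Δ, and 0.22 and 0.22 in set2Δ. The cph1Δ median was 0.19 without cph1Δ replicate 2 and 0.71 without wt replicate 1, and that of cph2Δ ran from -0.27 without cph2Δ replicate 1 to 0.23 without wt replicate 1. The set2Δ median stayed between 0.26 and 0.37 in all fits that left out a library. Non-coding RNAs that overlap no other gene, 154 of them tested, had medians of 0.28, -0.48 and 0.32. The count filter kept an RNA with enough counts in as few as 2 libraries. Low RNAs could therefore enter the 307 through the strains where they were high, as did SPNCRNA.1062 and SPNCRNA.992, which had few counts in both parents. The part of this in these medians and in the shares below was not tested.

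The libraries of a deletion did not overlap those of the parent and lay above them for 126 of the 307 RNAs in cph1Δ, or 41%, against 28.8% of all genes tested, and lay below for 27, or 8.79%, against 23.1%. In cph2Δ 68 lay above (22.1%, against 27.9%) and 56 below (18.2%, against 22%), and in set2Δ 108 above (35.2%, against 31.3%) and 49 below (16%, against 26.8%). Antisense RNAs that span their coding gene supplied 4 of the 7 calls in cph1Δ, 5 of the 7 in cph2Δ and 1 of the 4 in set2Δ from 77 tested RNAs. These are 5.19%, 6.49% and 1.3% of them, against the 5.62%, 6.12% and 4.89% of all genes tested, and their medians were 0.58, 0.15 and 0.30. The 151 that start inside the coding gene gave 2, 0 and 1 calls and medians of 0.47, -0.04 and 0.33. The 75 that end inside it gave 1, 2 and 2 calls and medians of 0.20, -0.01 and 0.42.

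**Figure D4:**
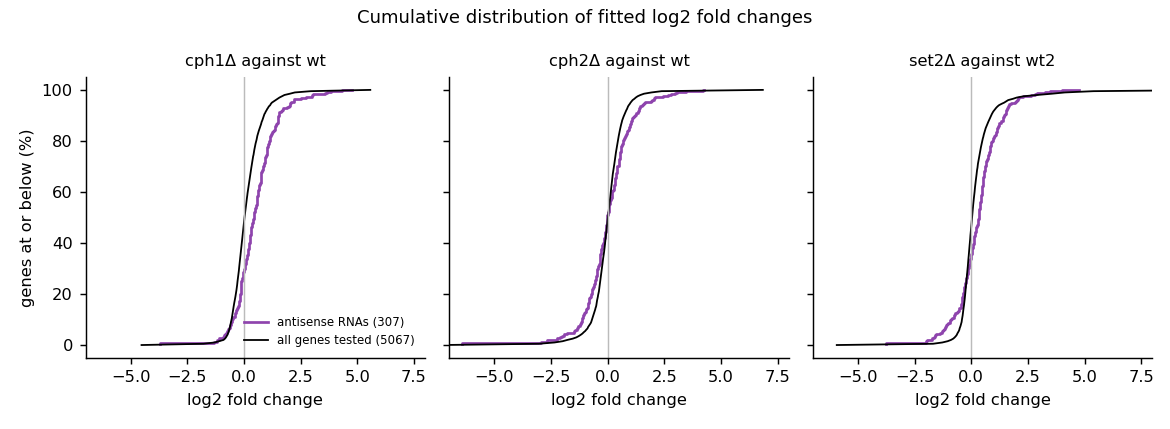
Cumulative share of genes (vertical axis, percent) at or below each fitted log2 fold change (horizontal axis), for the 307 antisense RNAs and for all 5067 genes tested, in each deletion. The antisense curve lies to the right of the other around the middle in cph1Δ and set2Δ, with medians of 0.43 and 0.33, and crosses it in cph2Δ.

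Direct comparisons of strains and of effects gave no call by edgeR with the main settings and a few by DESeq2. By edgeR 0 of the 307 RNAs passed between wt2 and wt (24 at an unadjusted p below 0.05, and 1 by DESeq2), between cph1Δ and cph2Δ (25, and 1), between the cph1Δ and set2Δ effects (21, and 1), and between the cph2Δ and set2Δ effects (29, and 3). All genes gave 0.197%, 0.0592%, 0.868% and 1.26% in the same tests. DESeq2 called SPNCRNA.1153 between cph1Δ and cph2Δ, SPNCRNA.293 between the cph1Δ and set2Δ effects, and SPNCRNA.1381, SPNCRNA.293 and SPNCRNA.987 between the cph2Δ and set2Δ effects. With no filter beyond 1 count, edgeR called SPNCRNA.293 in the former difference of effects and SPNCRNA.1381 in the latter.

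The share of paired coding genes that passed was close to that of other coding genes. Of 557 tested, 29 rose and 4 fell in cph1Δ (5.92%), 26 rose and 4 fell in cph2Δ (5.39%) and 29 rose and 1 fell in set2Δ (5.39%), and 1 of the falls in cph1Δ is cph1 itself. Coding genes with no antisense RNA among the 921 gave 6.08%, 6.72% and 5.06%. The count of 33 in cph1Δ was 8 without wt replicate 2 and 12 without cph1Δ replicate 2. That of 30 in cph2Δ was 10 without wt replicate 2 or cph2Δ replicate 2 and 47 without cph2Δ replicate 1, and that of 30 in set2Δ was 7 without either wt2 replicate and 14 or 18 without a set2Δ replicate.

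Most paired coding genes had no tested antisense RNA, whether or not they rose: of all 557 tested, 180 had one. Of the 29 that rose in cph1Δ, 8 had a tested RNA, 9 an untested RNA with some counts and 12 only RNAs at 0 counts, and the same numbers were 7, 9 and 10 of 26 in cph2Δ and 7, 8 and 14 of 29 in set2Δ. The vacuolar sorting gene vps1301 has the antisense RNAs SPNCRNA.1640 and SPNCRNA.1641, both with no unshared base, and rose by a log2 fold change of 2.33 ± 0.22 (SE, edgeR adjusted p = 0.000614) in cph1Δ, 2.25 ± 0.22 (0.000585) in cph2Δ and 1.57 ± 0.21 (0.00213) in set2Δ. The repair gene rhp1602, opposite SPNCRNA.1357, rose by 2.08 ± 0.23 (0.00101), 2.27 ± 0.23 (0.000742) and 1.94 ± 0.23 (0.000822). The remodeller gene mit1, opposite SPNCRNA.1401, rose by 1.68 ± 0.24 (0.00292), 1.69 ± 0.24 (0.00256) and 1.01 ± 0.23 (0.0303). The stress kinase gene gcn2 rose by 1.07 ± 0.16 (0.00345), 1.11 ± 0.16 (0.00262) and 0.75 ± 0.16 (0.0181), and its antisense RNA, SPNCRNA.1509, which was tested, had 0.00, 0.34 and -0.15, none past the test.

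In 181 pairs, which use 180 coding genes, both sides were tested. By edgeR the RNA passed in 1, 1 and 2 of these pairs in cph1Δ, cph2Δ and set2Δ, and the coding gene in 10, 9 and 7. So few calls cannot show whether the 2 sides change together, and 0 pairs passed on both sides in the same deletion, in either direction. At an unadjusted p below 0.05 this held for 6, 7 and 6 pairs in cph1Δ, cph2Δ and set2Δ, and by DESeq2 for 1 (SPNCRNA.1117), 2 (SPNCRNA.630 and SPNCRNA.869) and 1 (SPNCRNA.1692). Across these pairs, the log2 fold changes of RNA and coding gene had a Pearson correlation of 0.37 in cph1Δ, 0.29 in cph2Δ and 0.24 in set2Δ (n = 181 pairs from the same libraries, a description only), and shared the sign in 57.5%, 59.7% and 59.7%. In some pairs only the coding gene passed although the value of the RNA was large. The flocculin gene pfl7 fell by 2.76 ± 0.69 in cph1Δ (edgeR adjusted p = 0.0394) and rose by 5.02 ± 0.77 in set2Δ (0.00451), and SPNCRNA.293, which starts inside it, had -3.69 (0.0999) and 3.49 (0.158). The remodeller gene fft2 rose by 0.64 ± 0.16 in cph1Δ (0.0426), with SPNCRNA.1117 at 2.21 (0.0763). Because the count ignores strand, reads that run past the annotated 5′ end of a coding gene fall on the antisense RNA, and their part in these pairs was not tested.

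**Figure D5:**
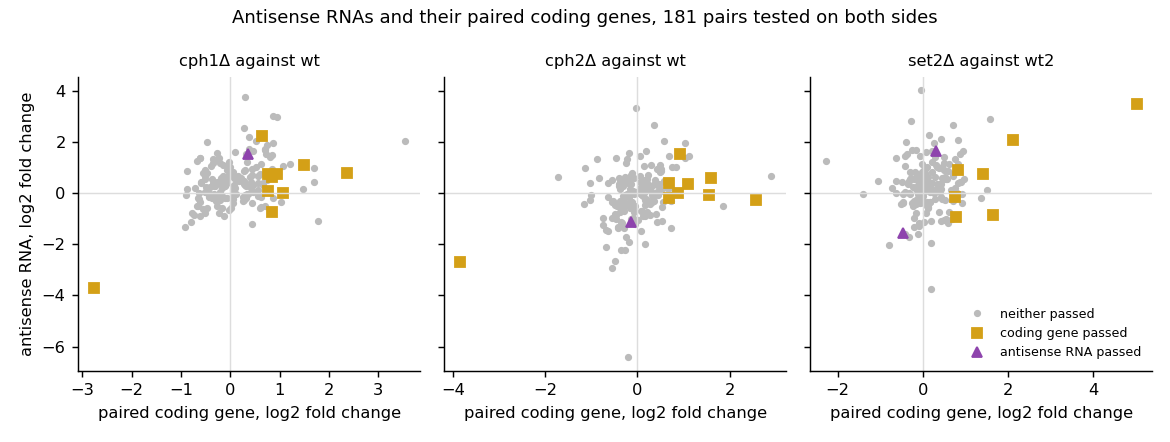
Log2 fold change of the antisense RNA (vertical axis) against that of its paired coding gene (horizontal axis) for the 181 pairs tested on both sides, in each deletion, with squares where the coding gene passed the test and triangles where the RNA did. Triangles mark 1, 1 and 2 pairs and squares 10, 9 and 7 in cph1Δ, cph2Δ and set2Δ. No pair carries both marks in the same deletion, and most points lie around 0 on both axes.

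Genes whose products act on antisense RNA were read as lists, beside the 5.31%, 5.21% and 4.32% of all genes tested that rose in cph1Δ, cph2Δ and set2Δ. For Clr6 complex II with Set2, 6 genes were tested; the scaffold gene pst2 rose in cph1Δ (0.78 ± 0.16, edgeR adjusted p = 0.0171), and apart from it only the deleted gene passed in each comparison by edgeR. By DESeq2, beside the deleted gene, 1 rose in cph1Δ, 2 in cph2Δ and 1 in set2Δ. Of 13 genes of the exosome and RNA elimination, 0 passed in cph1Δ (1 at an unadjusted p below 0.05, 0 by DESeq2), 1 rose in cph2Δ (mtl1, a helicase of the elimination complex, 0.82 ± 0.16, 0.0139) and 0 passed in set2Δ (0 and 0). Of 8 tested genes of RNA interference, Clr4 and H2A.Z, 4 rose in cph1Δ and 2 in cph2Δ: Dicer (dcr1) by 1.08 ± 0.16 (0.00345) and 0.99 ± 0.16 (0.00478), the RNA-dependent RNA polymerase rdp1 by 1.06 ± 0.18 (0.00594) and 1.16 ± 0.18 (0.00341), and in cph1Δ also the helicase gene hrr1 by 1.33 ± 0.27 (0.0152) and the Argonaute chaperone gene arb2 by 1.18 ± 0.27 (0.0281). In set2Δ 0 of the 8 passed (3 unadjusted, 0 by DESeq2). Of 13 tested elongation chaperones and remodellers, hrp3 and fft2 rose in cph1Δ, 0 passed in cph2Δ (5 unadjusted, 0 by DESeq2) and 0 in set2Δ (1 and 1), and of 9 tested genes of termination and decay 0 passed in each deletion (2, 2 and 4 unadjusted, 0 by DESeq2).

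Promoter windows, from 250 bases before to 50 after the annotated start of the RNA, could be read for 875 of the 921, those with the same ends in RefSeq's ASM294v3. On either strand, TATAAA stood in 40.9% of them and in 8 of the 15 windows of RNAs that passed a test, against 48.1% of 5144 coding genes. TGACGT, the core of the Atf1 stress site, stood in 6.86%, in those of SPNCRNA.1185 and SPNCRNA.1381 among the 15, and in 5.95% of coding genes. GTAAACA, the core of the meiotic FLEX element, stood in 13.6%, in those of SPNCRNA.1185 and SPNCRNA.1234 among the 15, and in 16.4% of coding genes.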

How the data were processed

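The deposited table holds raw read counts per gene, which the authors made with featureCounts 2.0.1 over the exons of the ASM294v2 annotation, per the file headers; the recorded command sets no option for strand, for overlapping genes or for multiple mapping. Alignment was with STAR 2.7.10a, per the submitters' processing notes. Exons came from the table, and a row's unshared bases were those in no other gene's exon. All 216 antisense RNAs and all 163 paired coding genes without any held 0 counts. edgeR 4.0.16 (R 4.3.3) was run on all 10 libraries in 5 groups, with filterByExpr and TMM scaling. Its quasi-likelihood F-tests were adjusted by Benjamini-Hochberg over 5067 genes. The fit was also run on simulated counts, with a common spread and changes placed only in genes above a low count. That run does not show how the fit treats low antisense RNAs. DESeq2 1.42.0 and 8 other alternatives were run. Counting intervals are exact (Clopper-Pearson, 95%). Libraries of a strain differed beyond sampling noise. The rule named RNAs past a test with at least 0.5 CPM over the compared libraries, the 6 highest per unshared kb, and their paired genes; other genes were chosen after their values were seen. The antisense RNAs and gene lists were chosen with earlier results of these data known.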

Additional observations from a re-analysis of the deposited data

How the results depend on the processing

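Every change of an antisense RNA that passed the test kept its direction in all 16 alternative fits. Over all genes tested the share that passed moved too, from 5.62%, 6.12% and 4.89% in cph1Δ, cph2Δ and set2Δ to 10.2%, 11.3% and 7.16% with DESeq2. The count of antisense RNAs past the test moved by more than 1.5 times in several of the fits. In cph1Δ it was 2 with relative log expression scaling, 2 with only the compared strains in the fit and 2 with a replicate block, against 7, and 0 to 4 in the fits that left out a library. In cph2Δ it was 14 with DESeq2 and 0 with only the compared strains, against 7, and 0 to 17 without a library. In set2Δ it was 9 with DESeq2, against 4, and 0 to 4 without a library. The counts of 0 between wt2 and wt, between cph1Δ and cph2Δ, and between the effects of cph1 or cph2 and set2 became 1, 1, 1 and 3 with DESeq2 and 0, 0, 1 and 1 with no filter beyond 1 count, and were 0 to 1, 0 to 2, 0 to 2 and 0 to 2 without a library. Paired coding genes past the test were 57, 58 and 47 with DESeq2 in cph1Δ, cph2Δ and set2Δ, 17 in cph2Δ with only the compared strains, and 11, 10 and 8 among partners of RNAs with at least 200 unshared bases, a set with fewer genes; without a library they were 8 to 39, 10 to 47 and 7 to 31. The cause of the other shifts was not tested. A fit that leaves 1 library in a strain assumes that it varies like the other strains.

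Libraries that share a replicate number deviated from their strain means with correlations of -0.41 (wt and cph1Δ), 0.23 (wt and cph2Δ) and 0.27 (wt2 and set2Δ). These differ in sign and rest on 1 difference per strain, so they do not settle whether the numbers pair the libraries. With the block, 2, 5 and 4 antisense RNAs passed, where all genes tested gave 5.13%, 5.43% and 4.48%. With the numbers of cph1Δ exchanged, an alternative chosen after seeing the data, the block gave 8, 11 and 7. Calls over all 5067 genes rose as well with that exchange, to 389, 446 and 337 from 285, 310 and 248 in the main fit. Of the 921 RNAs, 614 were not tested, 216 of them with no unshared base, which held 0 counts in every library.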
